A study of Mus musculus with 21 samples.

Results

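Endothelial cells line blood vessels, and the 9 genes described here are used to recognise them: Flt1 and Kdr encode receptors for vascular endothelial growth factor (VEGF), Tek and Tie1 the Tie receptors, Cdh5, Pecam1 and Cldn5 proteins of the junctions between endothelial cells, Vwf the blood-clotting protein von Willebrand factor, and Emcn a sialomucin of the vessel surface. All rows of the 4 deposited tables that name one of these genes were taken, which gave 25 regions at 8 genes out of 49307 listed regions. Tie1 has no listed region and therefore no value. Each region is a stretch of DNA that the authors listed as different in methylated-DNA capture between 2 groups, so being listed is itself no finding about a gene.

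The cells were cultured mouse synovial fibroblasts, the connective tissue cells of the joint lining, at passages 4 to 5 from mice of CBA x C57BL/6J background. The 21 samples form 7 groups of 3: Tg197 mice, whose human TNF transgene causes chronic arthritis, and wild-type (WT) mice without it, each taken at ages of 3, 8 and 11 weeks, and WT cells from mice of 8 weeks that were given TNF. The labels give no dose or duration of TNF, no sex and no number of animals, and do not say whether replicates were separate cultures, so p-values rest on the variation among these libraries alone, part or all of which may be technical. The 3 comparisons by age address early, established and late disease, and the comparison with TNF addresses exposure to the cytokine in culture. Values are reads per region divided by a size factor for each library, as the authors normalized them, and "gained" and "lost" mean higher or lower in Tg197 or TNF-treated cells than in untreated WT. The shallowest and deepest library held 2230884 and 2875554 recovered reads in the 3-week regions, 695108 and 1143699 in the 8-week regions, 385155 and 544797 in the 11-week regions and 1285306 and 1858694 in the TNF regions. TNF-treated libraries 1 and 2 hold identical values and were counted as 1 sample (n = 2), and the untreated WT libraries of 8 weeks serve both the 8-week and the TNF table.

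As background, VEGF binds the kinases encoded by Flt1 and Kdr, and Kdr passes on most of the growth signal while Flt1 also acts as a trap for the ligand. Angiopoietins bind the Tek receptor and steady the vessel wall, and Cdh5, Pecam1 and Cldn5 seal and join neighbouring endothelial cells. In fibroblasts these genes are normally silent or nearly so, and DNA methylation at CpG pairs can be one layer of such silencing. Whether it is so at these genes was not measured here. Methylated DNA is caught here by a methyl-CpG-binding protein, so the reads of a region follow both how many CpG pairs it has and how many of them are methylated. No RNA was used here, so the values say nothing on expression, and a change in methylation per cell cannot be told apart from a change in the mix of cells.

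Gene starts differ widely in how many sites the method could catch. Promoters from RefSeq (build GRCm38.p6) were matched by symbol for 6 of the 9 genes, and the 250 bases before the start are shown for 3 of them, the CpG-rich Flt1, which has the most regions listed after TNF, Cldn5, the one gene whose single region lies upstream of its start, and the CpG-poor Emcn. Each is written in the direction of its gene, with CpG pairs in capitals (Flt1 chr5:147726012-147726261, minus strand; Cldn5 chr16:18776597-18776846, plus strand; Emcn chr3:137340828-137341077, plus strand).
Flt1: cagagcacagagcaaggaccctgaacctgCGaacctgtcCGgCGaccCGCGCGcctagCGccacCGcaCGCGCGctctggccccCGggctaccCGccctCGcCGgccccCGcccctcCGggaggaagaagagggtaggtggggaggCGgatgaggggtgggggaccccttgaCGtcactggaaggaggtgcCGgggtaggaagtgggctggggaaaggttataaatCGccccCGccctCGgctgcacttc
Cldn5: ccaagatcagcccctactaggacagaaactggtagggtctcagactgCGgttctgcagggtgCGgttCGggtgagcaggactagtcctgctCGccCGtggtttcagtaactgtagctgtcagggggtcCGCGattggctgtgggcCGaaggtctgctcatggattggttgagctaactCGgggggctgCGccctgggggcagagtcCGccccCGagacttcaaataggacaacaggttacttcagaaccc
Emcn: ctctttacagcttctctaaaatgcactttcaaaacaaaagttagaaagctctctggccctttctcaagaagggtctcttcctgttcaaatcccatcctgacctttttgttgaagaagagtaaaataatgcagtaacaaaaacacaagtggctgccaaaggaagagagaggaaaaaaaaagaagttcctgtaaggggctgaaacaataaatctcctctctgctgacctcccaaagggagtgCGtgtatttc
The Flt1 window holds 23 CpG pairs, Kdr 16, Cldn5 12, Tie1 6, Tek 2 and Emcn 1, against a median of 6 over 32851 promoter windows. By the distances to the start in the files, no listed region reaches one of these windows, so the promoters of these 6 genes have no capture value at the start itself. The hexamer CAGGAA, which contains the GGAA core bound by ETS factors, was searched on both strands. It occurs in the Emcn, Tek and Tie1 windows and in 25.7% of all promoter windows, and not in those of Flt1, Kdr and Cldn5, which is a match of letters and not a sign of binding.

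Of the 25 regions, 10 were gained and 11 lost by the limma test (adjusted p under 0.05 over all regions of a table), and 4 did not pass. At 3 weeks 6 of 8 passed (2 gained, 4 lost), where 85.0% of all listed regions did (40.3% gained, 44.7% lost). At 8 weeks 2 of 3 passed (1 gained, 1 lost), where 54.0% did (17.4% gained, 36.6% lost). At 11 weeks 4 of 5 passed, all gained, where 77.9% of listed regions passed (49.7% gained, 28.2% lost). After TNF all 9 passed, 3 gained and 6 lost, where 93.8% of listed regions passed (29.8% gained, 64.1% lost). With 3 to 9 regions per table, how near these counts stand to the shares of the whole tables cannot be judged. By direction alone, 3 of 8, 2 of 3, 4 of 5 and 3 of 9 member regions were higher, in the same order. Of all listed gene-body regions, the class of most members, 45.96%, 32.79%, 58.7% and 23.92% were higher. The median log2 fold over the members was -0.17 at 3 weeks, 0.55 at 8 weeks, 0.97 at 11 weeks and -1.18 after TNF, beside -0.12, -0.22, 0.76 and -1.08 over all listed regions. The members' medians had the sign of their table's median at 3 weeks, 11 weeks and after TNF, and the opposite sign at 8 weeks, where there are 3 regions.

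**Figure D1:**
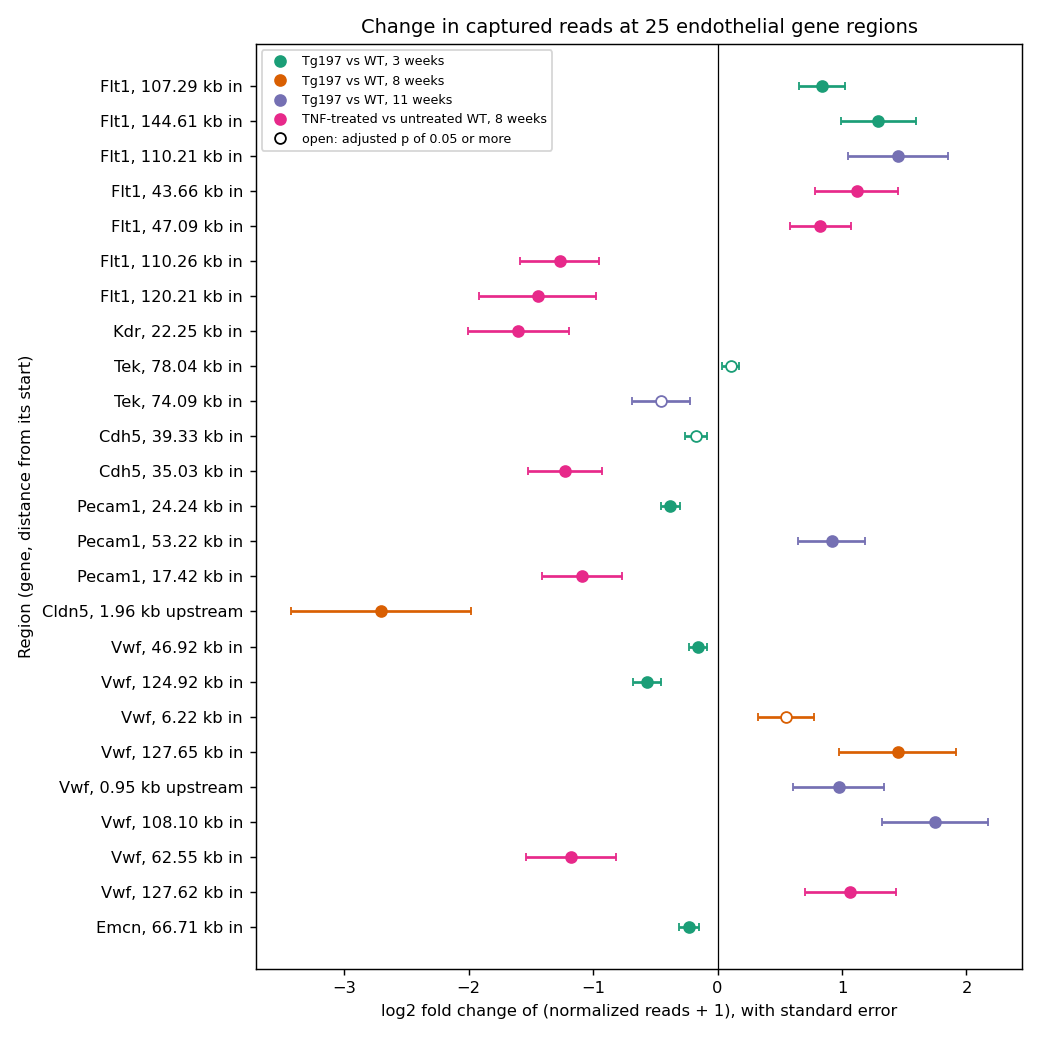
Log2 fold change of normalized reads plus 1 (x axis, with standard error) at each of the 25 regions (y axis, by gene and distance of the region's middle from the gene's start), coloured by comparison, with open points for the 4 regions that did not pass. Flt1, Vwf, Pecam1 and Tek have points on both sides of 0, and the Cldn5 region at 8 weeks lies farthest from it at -2.71.

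The number of regions differed between genes: Vwf had 8, Flt1 7, Pecam1 3, Tek and Cdh5 2 each, and Kdr, Emcn and Cldn5 1 each. Among the members Vwf alone was listed in all 4 tables, as were 6.25% of the 9615 named genes. Flt1, Vwf and Tek are of like size (163.79, 133.72 and 135.64 kb in mm9), and among the 1063 listed genes of 100 to 200 kb the median was 3 regions, with 7 or more at 19.6%. Most regions lay within gene bodies, between 4.7% and 95.5% of the way along the gene, and 2 lay upstream, near Vwf and Cldn5. No stretch of these genes was listed in the Tg197 comparison at more than one age. Exons and introns could not be told apart, since no annotation of this build was used here.

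**Figure D2:**
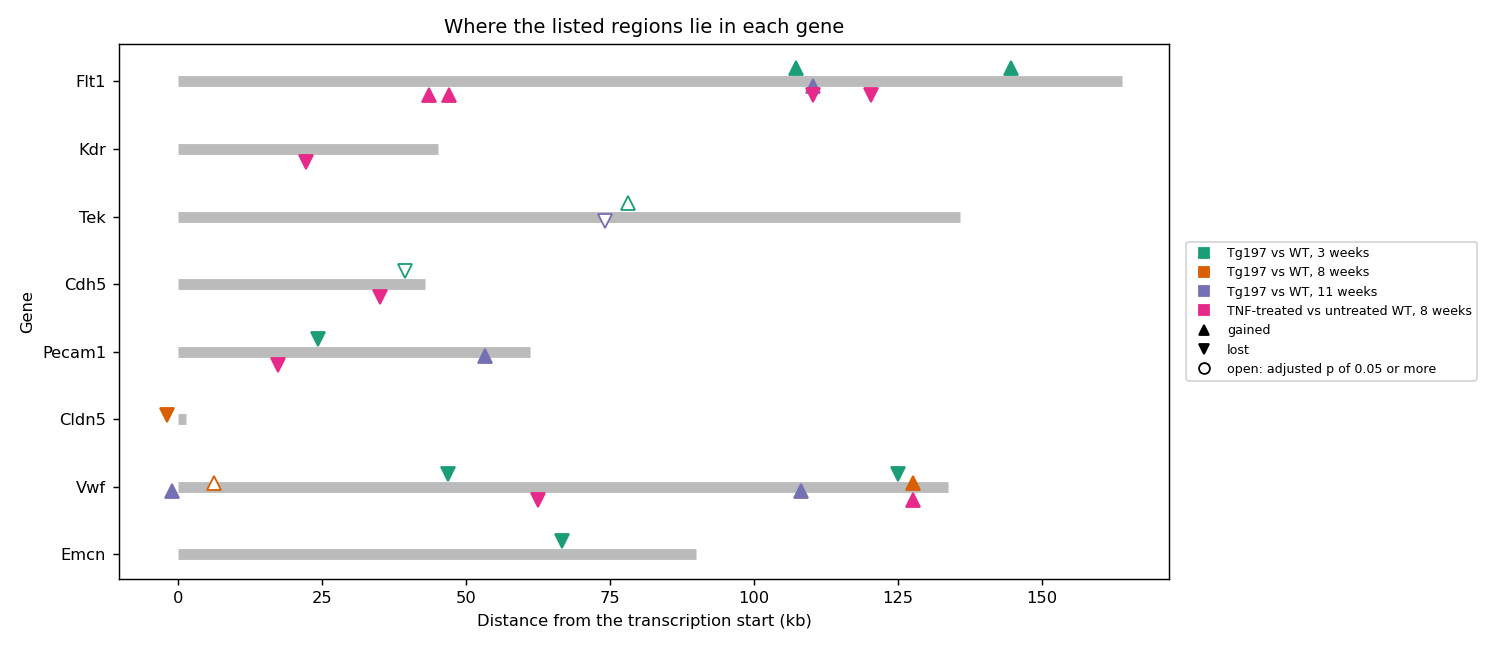
Position of each region's middle (x axis, kb from the transcription start) in the 8 genes with a listed region (grey bars, drawn to scale), with triangles up for higher and down for lower capture, coloured by comparison and open where the adjusted p was 0.05 or more. Flt1 and Vwf carry 15 of the 25 regions, and the Flt1 regions about 110 kb in were listed at 11 weeks and after TNF in opposite directions.

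Flt1, the VEGF receptor that also exists as a soluble trap, had gained capture at 3 and 11 weeks and changed in both directions after TNF. At 3 weeks the region 144.61 kb from its start (chromosome 5, 148392651 to 148393250, mm9) held 22.7, 22.6 and 32.6 normalized reads in the Tg197 libraries and 9.39, 8.14 and 12.5 in WT. All 3 Tg197 libraries stood above all WT libraries, and the change was a log2 fold of 1.29 (standard error 0.30; limma adjusted p = 0.00236). A second region, 107.29 kb in (148429951 to 148430600), held 71.3, 65.1 and 69.2 in Tg197 against 46.0, 39.8 and 29.5 in WT. The groups were again apart, with a log2 fold of 0.84 and a standard error of 0.19 (limma, adjusted p = 0.00213). Both 3-week gains were called under every alternative that was run: a pseudocount of 0.1, median-of-ratios rescaling of the libraries, voom (limma's weighting for counts) on recovered reads, and each library left out. Here voom scaled each library by its read sum over the listed regions, so it replaced the authors' scaling as well as weighting the counts. Results with voom reflect both, and their parts were not told apart.

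At 11 weeks the Flt1 gain lay 110.21 kb in (148427101 to 148427600), 2350 bp from the second region of 3 weeks. Tg197 libraries held 21.5, 24.1 and 37.1 reads there and WT libraries 5.44, 13.03 and 10.7. The lowest Tg197 value was above the highest WT value, and the log2 fold was 1.45 (standard error 0.40; limma adjusted p = 0.0219). After TNF a listed region of 600 bp that contains these 500 bp (148427001 to 148427600) was lower. It held 15.9 and 13.6 reads in TNF-treated cells against 36.0, 49.5 and 28.3 in WT, a log2 fold of -1.27 over the 600 bp (standard error 0.32, limma adjusted p = 0.0109). The WT libraries of 8 weeks gave 37.9 ± 10.8 reads over the 600 bp and those of 11 weeks 9.73 ± 3.89 over the 500 bp (SD, n = 3 each). Per kb these means are 63.2 and 19.5. The stretches differ in length and the tables were normalized separately, so the levels cannot be compared by a test.

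Another 3 Flt1 regions were listed after TNF. Capture fell 120.21 kb in (148417101 to 148417600), from 24.8, 14.5 and 16.0 in WT to 3.98 and 8.68 in TNF-treated cells (log2 fold -1.45, standard error 0.47). It rose 47.09 kb in (148490001 to 148490950), from 44.5, 46.5 and 30.7 to 82.6 and 62.0 (log2 fold 0.83, standard error 0.25), and 43.66 kb in (148493651 to 148494150), from 14.6, 28.2 and 29.5 to 46.8 and 55.8 (log2 fold 1.12, standard error 0.33). No library of one group reached the range of the other at any of the 4 sites (limma, adjusted p from 0.0109 to 0.0149). After TNF, then, the 2 sites at 26.7% and 28.7% of the gene's length were gained and the 2 at 67.3% and 73.4% were lost. The outer loss rests on 11 recovered reads in the TNF-treated libraries and 61 in the WT libraries. Without TNF-treated library 1 the outer loss (limma, adjusted p = 0.0871) and the gain 47.09 kb in (0.0951) did not pass. With voom the gain 47.09 kb in did not pass either (limma, adjusted p = 0.094). Without WT library 1 the outer loss did not pass (limma, adjusted p = 0.0638), and without TNF-treated library 3 the gain 43.66 kb in did not pass (0.0666).

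**Figure D3:**
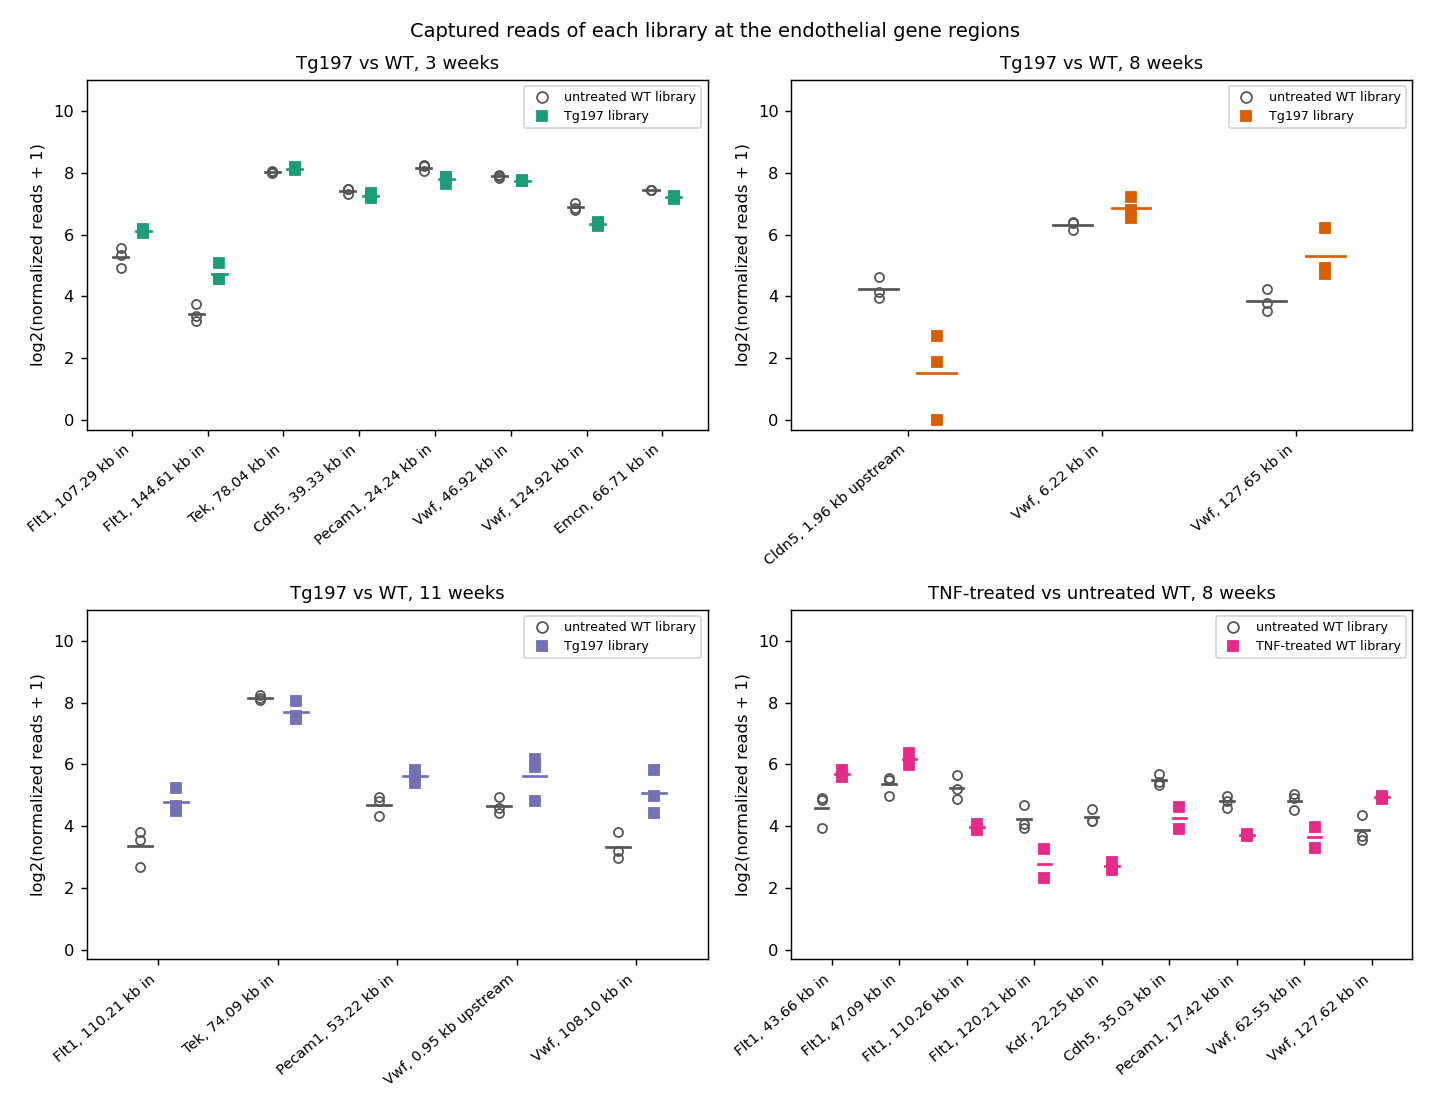
Normalized reads on a log2(value + 1) axis (y) in each library at every listed region of the 8 genes (x), with 1 panel per comparison, open circles for untreated WT, filled squares for Tg197 or TNF-treated libraries and lines for group means of the log values. Groups are apart at 23 of the 25 regions, and the regions near 8 on the axis at 3 weeks differ by little. Of all listed regions, groups are apart at 86.1% at 3 weeks, 69.6% at 8 weeks, 83.7% at 11 weeks and 95.8% after TNF.

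Kdr, the main signalling VEGF receptor, had 1 region, after TNF, 22.25 kb from its start and in the middle of the gene (chromosome 5, 76351951 to 76352450). WT libraries held 17.1, 22.9 and 17.2 reads and TNF-treated libraries 4.98 and 6.20. The treated values were below all WT values, a log2 fold of -1.60 (standard error 0.41, limma adjusted p = 0.0109). The group sums are 10 recovered reads in the 2 treated libraries and 64 in the 3 WT libraries.

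Tek, the angiopoietin receptor, had 2 regions, neither of which passed. At 3 weeks the region 78.04 kb in (chromosome 4, 94483701 to 94484350) held 290.5, 273 and 270.01 reads in Tg197 and 259, 266 and 249.9 in WT. The groups did not overlap, but the log2 fold was 0.10 (standard error 0.07, limma adjusted p = 0.154). At 11 weeks a region 3250 bp away (94479701 to 94480450) held 266, 189 and 178 in Tg197 and 286, 304 and 268 in WT (log2 fold -0.46, standard error 0.23, limma adjusted p = 0.0911). The 3-week region did pass after rescaling (limma, adjusted p = 0.0275) and with voom (0.0068), at log2 folds of 0.16 and 0.21. In the authors' deposited table the adjusted p of the 3-week region is 1, while the q-value of its best window is 7.54e-09.

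Cdh5 encodes VE-cadherin, the adhesion protein of endothelial junctions. At 3 weeks its region near the end of the gene (chromosome 8, 106664601 to 106665100, 39.33 kb in) held 160.9, 146 and 143 reads in Tg197 and 177, 157 and 176 in WT. These ranges overlap, and the log2 fold of -0.18 with a standard error of 0.09 did not pass (limma, adjusted p = 0.0729), though it did without Tg197 library 1 (0.0463) or WT library 2 (0.0363). After TNF a region 3700 bp nearer the start (106660201 to 106660900) held 13.9 and 23.6 reads against 42.0, 51.0 and 39.3 in WT. Capture had fallen there by 1.23 on the log2 scale (standard error 0.30, limma adjusted p = 0.0109), the smallest p among the members in that table.

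Pecam1, the gene of the adhesion molecule CD31, fell at 3 weeks and after TNF and rose at 11 weeks, each time at another place. The 3-week region (chromosome 11, 106552101 to 106552600, 24.24 kb in) held 229, 199 and 229 reads in Tg197 and 299.5, 262 and 293 in WT, a log2 fold of -0.38 (standard error 0.08, limma adjusted p = 0.00183). At 11 weeks a region 53.22 kb in (106523001 to 106523750) held 48.7, 41.2 and 55.2 in Tg197 and 19.0, 27.0 and 30.2 in WT, a log2 fold of 0.92 (standard error 0.27, limma adjusted p = 0.0219). After TNF a region 17.42 kb in (106558901 to 106559450) held 11.9 and 12.4 reads against 30.8, 27.4 and 23.4, a log2 fold of -1.09 (standard error 0.32, limma adjusted p = 0.0118). The groups were apart at all 3 sites.

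Cldn5, which encodes a claudin of tight junctions, was listed at 8 weeks only. Its region (chromosome 16, 18774651 to 18775300) is centred 1.96 kb upstream of the start, so it ends before the promoter window printed above. Tg197 libraries held 2.65, 5.54 and 0 reads and WT libraries 23.7, 16.5 and 14.4. Every Tg197 value was under every WT value, a log2 fold of -2.71 (standard error 0.73, limma adjusted p = 0.0428). The group sums are 10 and 63 recovered reads. The call did not hold without Tg197 library 1 (limma, adjusted p = 0.0726) or 3 (0.0891), without WT library 1 (0.131) or 2 (0.134), or with a pseudocount of 0.1 (0.0675), with log2 folds from -3.95 to -1.94 in these.

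Vwf was the gene listed most often. At 3 weeks it lost capture at 2 sites of its body. The first, 46.92 kb in (chromosome 6, 125549651 to 125550150), held 215, 209 and 209.7 reads in Tg197 against 244, 235 and 228 in WT (log2 fold -0.16, standard error 0.07, limma adjusted p = 0.0457). The second, 124.92 kb in (125627601 to 125628200), held 75.6, 79.2 and 83.1 against 128.6, 116 and 110.2 (log2 fold -0.57, standard error 0.11, limma adjusted p = 0.00172). Groups were apart at both, but the first lost its call when any 1 library was left out, and under rescaling and with voom.

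At 8 weeks Vwf had 2 sites with more reads in Tg197. At 6.22 kb in (125508951 to 125509450) the values were 147, 91.3 and 110.3 against 69.3, 80.9 and 82.9 in WT, which did not pass (log2 fold 0.55, standard error 0.22, limma adjusted p = 0.0646). Capture rose 127.65 kb in (125630151 to 125631100), with 29.2, 25.6 and 73.5 reads against 12.7, 10.5 and 17.7 (log2 fold 1.45, standard error 0.47, limma adjusted p = 0.0431). Tg197 library 3 was far above the others there, and without it the log2 fold was 0.98 (limma, adjusted p = 0.0989). Leaving out Tg197 library 1, WT library 1 or WT library 2 also ended the call (limma, adjusted p from 0.0726 to 0.134). A region over the first 900 bp of the same stretch was listed after TNF, with 30.9 and 28.5 reads against 12.0, 10.7 and 19.7 (log2 fold 1.07, standard error 0.37, limma adjusted p = 0.0189). The gain after TNF was lost without either TNF-treated library or WT library 2 and with voom (limma, adjusted p from 0.0549 to 0.0781). Both gains are measured against the same 3 WT libraries, so they are not 2 independent observations.

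**Figure D4:**
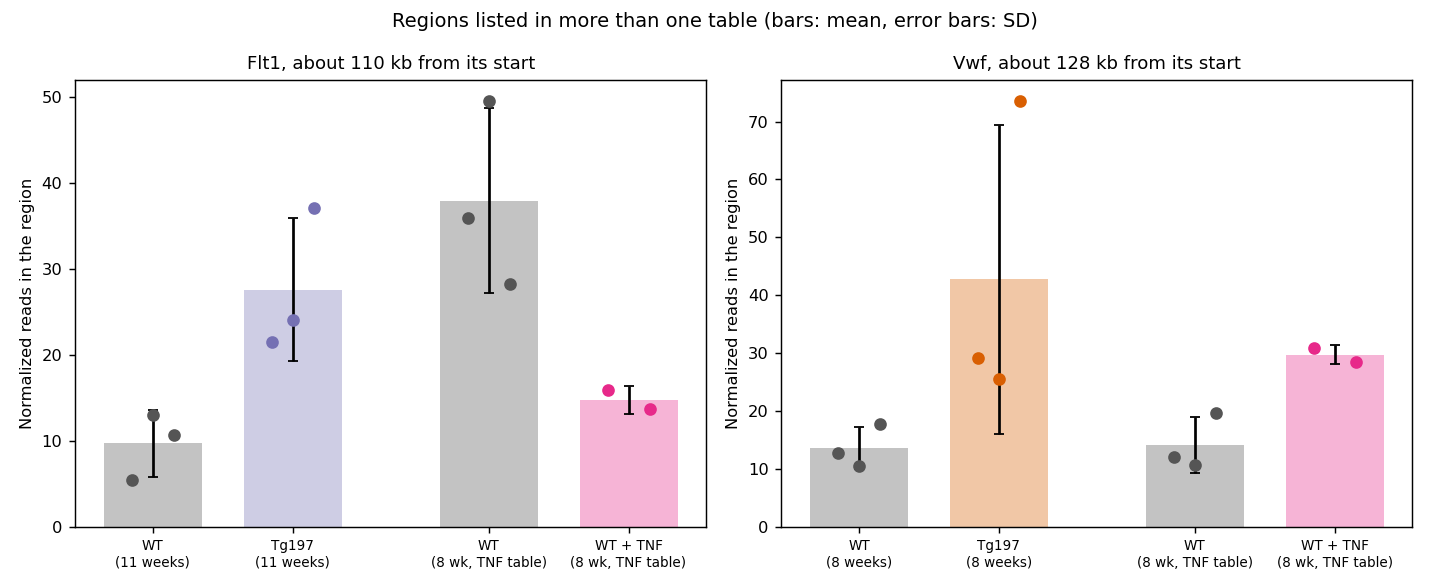
Normalized reads (y axis) in each library (points), with the group mean (bars) and SD (error bars), at the 2 places listed in more than one table: Flt1 about 110 kb and Vwf about 128 kb from the start. Flt1 is higher in Tg197 at 11 weeks and lower after TNF, while Vwf is higher in both Tg197 at 8 weeks and TNF-treated cells, against the same WT libraries. Region lengths differ: 500 bp at 11 weeks and 600 bp after TNF for Flt1, 950 bp at 8 weeks and 900 bp after TNF for Vwf.

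At 11 weeks Vwf gained capture upstream and within the gene. The upstream region, centred 0.95 kb before the start (125501601 to 125502450), held 59.0, 27.5 and 70.7 reads in Tg197 against 20.4, 23.3 and 30.2 in WT. Tg197 library 2 fell inside the WT range, and the log2 fold was 0.97 (standard error 0.36, limma adjusted p = 0.0349). The other region, 108.1 kb in (125610651 to 125611500), held 30.3, 20.6 and 55.2 against 8.16, 13.03 and 6.82 (log2 fold 1.75, standard error 0.42, limma adjusted p = 0.0219), with the groups apart. After TNF a Vwf site 62.55 kb in (125565151 to 125565900) was lost, with 8.96 and 14.9 reads against 29.1, 32.0 and 22.1 (log2 fold -1.18, standard error 0.36, limma adjusted p = 0.0126), a call lost without TNF-treated library 1 (0.0696) or WT library 2 (0.0536).

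Emcn, the endomucin gene, was listed at 3 weeks only, 66.71 kb into its body (chromosome 3, 137070501 to 137071000). Tg197 libraries held 139, 152 and 148 reads and WT libraries 173, 172 and 172. All Tg197 values were lower, with a log2 fold of -0.23 (standard error 0.08, limma adjusted p = 0.0159). The call was lost without Tg197 library 1, under rescaling and with voom (limma, adjusted p = 0.0628, 0.0523 and 0.21).

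The size of a change went with the read level. Of the 8 member regions at 3 weeks, the 6 with a WT mean of at least 100 reads changed by 0.10 to 0.57 in absolute log2 fold and the 2 Flt1 regions under it by 0.84 and 1.29. Over all regions of that table the medians were 0.24 at 7549 regions of the higher level and 1.03 at the 5576 others, so this split is not particular to endothelial genes. At 4 of the 3-week regions (Pecam1, Emcn, Cdh5 and the Vwf site 46.92 kb in) the p in the authors' deposited table lay more than 10 times below the p that the recovered reads give in an exact binomial test. For Emcn it is 1.1e-11, against 0.0144 from 440 and 525 reads (two-sided), and for Cdh5 1.11e-11 against 0.0618 from 449 and 516 reads. After TNF the p in the authors' deposited table was also more than 10 times lower at 4 of the 6 losses (Kdr, Cdh5, Pecam1 and Vwf). There the 2 p-values do not rest on like reads. The binomial test counted the identical libraries as 1, while the authors' values hold both. How much of the gap comes from this was not tested. For Kdr the authors' deposited table has 5.33e-07, against 4.3e-05 from 10 and 64 reads. None of the 8 member regions at 8 and 11 weeks had such a gap.

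Values of the libraries did not overlap between groups at 7 of 8 regions at 3 weeks (86.1% of all listed regions), 3 of 3 at 8 weeks (69.6%), 4 of 5 at 11 weeks (83.7%) and 9 of 9 after TNF (95.8%). The calls at 8 and 11 weeks depended on single libraries. At 8 weeks, leaving out any of 4 libraries (Tg197 1, Tg197 3, WT 1, WT 2) left 0 member calls by limma and 0 calls in the whole table, with 1 or 2 members at an unadjusted p under 0.05. At 11 weeks the same held for 3 libraries (Tg197 1, Tg197 3, WT 2), with 0 or 10 calls in the whole table and 3 or 4 members at an unadjusted p under 0.05. The gain upstream of Vwf was lost without WT library 1 too (limma, adjusted p = 0.0758). After TNF, without TNF-treated library 1, 5 of 9 passed (1 gained, 4 lost), with 1 treated library assumed to vary like the WT libraries.

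The losses after TNF also depended on the scaling. The median log2 fold of the whole TNF table was -1.08 as the authors scaled it and -0.27 after median-of-ratios rescaling over the listed regions, which turned the calls of the table from 5028 gained and 10827 lost to 5829 gained and 1695 lost. None of the 6 member losses passed limma after this rescaling (log2 folds from -0.83 to -0.28), while all 3 gains did (1.66 to 1.94). The rescaling takes the typical listed region as unchanged, though all were listed as different and 66.23% were lower after TNF. It therefore raised the folds of losses and gains alike, and it cannot decide which scaling is right. At 11 weeks rescaling moved the median from 0.76 to 0.49 and the calls from 3633 gained and 2061 lost to 2636 and 2918. There the Flt1 gain and the Vwf gain 108.1 kb in passed, the gains at Pecam1 (limma, adjusted p = 0.0532) and upstream of Vwf (0.07) did not, and the Tek loss did (log2 fold -0.73, limma adjusted p = 0.042). No member changed direction under any alternative.

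Of all regions listed after TNF, 66.23% were lower than in WT, and most of those within 1 Mb of the members were too. Around the Vwf site gained after TNF, 127.62 kb in, 30 of 32 neighbours were lower and 2 higher, and around the Vwf site that was lost 30 of 33 were lower. Around the Pecam1 site 29 of 33 neighbours were lower around Kdr 16 of 22 and around Cdh5 5 of 7. The 4 Flt1 sites had 10 or 11 higher and 16 or 18 lower neighbours, a count that includes one another. At 11 weeks, where 54.15% of listed regions were higher, 7 of the 9 neighbours of either Vwf site were higher, as were 8 of 14 around Flt1, 4 of 9 around Pecam1 and 1 of 3 around Tek. At 3 weeks the neighbours of both Vwf sites were evenly divided, 12 and 12 at the first and 11 and 11 at the second. Both Vwf sites of a comparison lie within 1 Mb of each other, so each is counted among the other's neighbours and their surroundings overlap. These are directions of listed regions and not tests.

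Regions of other genes with the most similar values were found for the member with the smallest p in each table, by the root mean square difference of log2(value + 1). For the Vwf site 124.92 kb in at 3 weeks they were at Cdc42bpa and Ctdspl (differences of 0.07 and 0.08 over 6 libraries), and for Cldn5 at 8 weeks at Dennd1b and Osbp2 (0.16 and 0.17). For the Vwf site 108.1 kb in at 11 weeks they were at Farp1 and Nedd4l (0.22 each), and for Cdh5 after TNF at Ufsp2 and Pgd (0.13 and 0.14 over 5 libraries). None of these is an endothelial marker of the lists used here. That says little, since the members themselves were left out of the search and 3717 to 9275 regions were compared per table.

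Ligands and partners of these receptors were listed as well. The VEGF list held 9 gene names for ligands, co-receptors and the receptor Flt4, with Figf and Vegfd naming 1 gene. In it Vegfc, a ligand of lymphatic vessels, gained capture at 3 weeks (log2 fold 0.98) and 11 weeks (1.06). After TNF, Vegfa, the main VEGF ligand (log2 fold -1.60), the placental growth factor gene Pgf (-0.46) and the co-receptor gene Nrp2 (-1.22) lost capture. Nrp2 also fell at 8 weeks (-1.16) and 11 weeks (-1.11), and Nrp1 rose at 3 weeks (1.13) and fell at 8 weeks (-0.96). The other 2 regions of the list at 8 weeks did not pass (limma): Figf, the VEGF-D gene, had a log2 fold of 0.91 and the VEGF receptor gene Flt4 one of 0.58. Of the angiopoietins, which bind Tek, Angpt1 fell at 8 weeks (-3.55) and rose at 11 weeks (1.29) and after TNF (0.33), and Angpt2 fell at 8 weeks (-1.04) and at 2 regions after TNF (-1.95 and -1.82). Ptprb, the phosphatase that opposes Tek, rose at 3 weeks (1.06), 11 weeks (1.40) and after TNF (1.04). Flt4 and the second Angpt2 region lie outside the naming rule and were added after their values were seen. The median log2 fold of all regions listed after TNF was -1.08, a larger fall than at Pgf. The Angpt1 fall at 8 weeks rests on 0.88 ± 1.53 reads in Tg197 against 18.7 ± 9.55 in WT (SD). Whether the calls at these ligand and partner genes hold under rescaling or with libraries left out was not examined.

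In all, 5 lists held 91 endothelial and angiogenic gene names (ligands, angiopoietins, transcription factors, junction and surface genes, Notch genes), some of them 2 names of 1 gene. Together the lists held 29 regions at 3 weeks (10 gained, 11 lost, 8 not passing), 30 at 8 weeks (3, 14 and 13), 22 at 11 weeks (12, 4 and 6) and 41 after TNF (8, 32 and 1). Their median log2 folds were -0.12, -0.95, 1.04 and -1.19, beside the medians of all listed regions given above. Over all listed regions 40.3% were gained and 44.7% lost at 3 weeks, 17.4% and 36.6% at 8 weeks, 49.7% and 28.2% at 11 weeks, and 29.8% and 64.1% after TNF. Endothelial transcription factors had 1 gained and 7 lost of 9 regions at 3 weeks, 0 and 2 of 6 at 8 weeks, 2 and 1 of 6 at 11 weeks, and 2 and 9 of 11 after TNF. Junction and surface genes had 5 gained and 3 lost of 14, then 3 and 7 of 15, 2 and 2 of 6, and 3 and 14 of 18 in the same order. Notch genes of vessels had 1 gained and 1 lost of 3, 0 and 1 of 3, 5 and 0 of 6, and 1 and 4 of 5. Differences between these lists and the other listed regions were not tested.

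Genes of mural cells, of macrophages and of the synovial fibroblasts themselves were listed too. Mural cell genes, which mark the cells around vessels, held 8 regions at 3 weeks (1 gained, 3 lost), 6 at 8 weeks (1 and 5), 2 at 11 weeks (1 and 1) and 9 after TNF (4 and 4). Synovial fibroblast genes held 5 (2 and 3), 1 (lost), 2 (1 gained) and 4 (1 and 3), and macrophage genes 2 (1 and 1), 1 (lost), 1 (gained) and 1 (lost). Regions counted neither as gained nor as lost did not pass. Over all listed regions 40.3% were gained and 44.7% lost at 3 weeks, and 17.4% and 36.6% at 8 weeks. The shares were 49.7% and 28.2% at 11 weeks and 29.8% and 64.1% after TNF. Differences from these shares were not tested. Whether a different mix of cells has a part in the values of the endothelial genes was not tested.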

How the data were processed

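Methylated DNA was enriched with a methyl-CpG-binding protein kit from sheared DNA and sequenced as paired reads of 100 bp, per the labels' protocols. The submitters' processing notes name mm9, BWA, TopHat, TopHat2, Cufflinks and Cuffdiff without a role. No source used here names the program or test behind the tables. Per the file headers, each region has the authors' mean normalized signal per group, a log2 fold change, and p-values before and after adjustment, and the values of the 3 libraries packed in 1 cell, with no replicate number. Regions are at least 500 bp long and no window p is above 0.0001, so every test here is a retest of regions already selected. In the authors' columns, "treatment" was taken to mean the Tg197 or TNF arm and "control" the untreated WT arm. The recovered reads of the WT libraries in the 8-week and TNF tables were equal at all 257 identical regions. Per-sample columns left out numbered 0.

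All regions of a table entered 1 fit of limma 3.58.1 (R 4.3.3, trended variance) on log2(value + 1), with no filter. Adjustment was Benjamini-Hochberg within the table, called under 0.05. Folds refer to the log2(value + 1) scale, which understates changes at low values. Tables were normalized separately and were fitted separately. Whole reads were recovered from the step of each library (100% of values up to 20 reads within 0.1 of a whole number) for voom, for the binomial test and for depth. Intervals of such reads cover counting error only, and total depth is unknown. The limma script was tested on simulated data. Members and lists were chosen with earlier results of these data known. All member regions are given. The rule also allowed up to 3 regions per other list and table, by the authors' adjusted p, of which only those of the VEGF and angiopoietin lists are named, with 2 more regions of these lists that were added after their values were seen. The split at 100 reads was chosen after the values were seen.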

Additional observations from a re-analysis of the deposited data

How the results depend on the processing

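Of 234 single values of the 25 member regions under the alternatives, 174 kept direction and side of the threshold, 54 lost the call, 6 gained one and 0 changed direction. The calls that held throughout were at 3 weeks: both Flt1 regions, Pecam1 and the Vwf site 124.92 kb in. A minimum mean of 10 removed 85 regions of the TNF table, where no member call changed. It removed 0 in the other tables, so it tests nothing there and is left out of these counts. Leaving out 1 library in turn gave 5 to 6 member calls at 3 weeks (10133 to 10848 in the whole table), 0 to 3 at 8 weeks (0 to 8849), 0 to 4 at 11 weeks (0 to 5511) and 5 to 9 after TNF (10967 to 15870). Where 0 members passed limma at 8 weeks, 1 or 2 had an unadjusted p under 0.05, and 3 or 4 at 11 weeks. With a pseudocount of 0.1, limma passed 0 of 3 members and 0 of 11975 regions at 8 weeks (3 and 7511 unadjusted). voom on recovered reads passed 1 member at 8 weeks, and rescaling passed 3 members and 7524 regions after TNF, where the cause was not tested. With voom, gains made up 63.2%, 11.2%, 81.7% and 10.7% of calls at 3, 8 and 11 weeks and after TNF, beside 47.4%, 32.3%, 63.8% and 31.7%. Counting the identical TNF libraries separately changed no member call. No paired analysis was possible because the values in a cell carry no replicate number. Depth limits Cldn5 and Kdr most, with 10 reads each in the lower group, and the Flt1 loss 120.21 kb in nearly as much, with 11.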
